A study of Mus musculus with 16 samples.

Results

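The genes described here are chaperones, folding enzymes, stress regulators and quality control factors of the endoplasmic reticulum (ER), 37 in all, taken as a list of gene symbols and split by role. A gene counted as measured where a probe carrying its symbol in the array annotation had a detection p-value under 0.05 on at least 2 of 16 arrays, and the probe with the highest mean stood for the gene. By this rule 27 of the 37 genes were measured, of 9903 genes measured in all, and the chosen probe of each of the 27 was detected on 16 of 16 arrays. Probes for Canx, Manf, Ern1, Derl1 and Ssr1 were detected on 0 or 1 arrays and gave no usable level. Sdf2l1, Dnajb11, Atf6, Ero1l and Ppib had no probe named for them and were not analysed here.

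RNA of 16 MMTV-Neu mammary tumours was hybridised to Illumina mouse bead arrays, 1 array for each tumour. Tumour titles start with N in primary and WT in secondary tumours, which the labels do not explain. In this model the Neu (ErbB2) oncogene is driven by the mouse mammary tumour virus promoter, which is active mainly in mammary epithelium, and all groups carry it on the strain FvB. The groups were 9 secondary tumours that each grew from a single tumour-initiating cell (single TIC), 2 secondary tumours from transplanted lineage-negative cells (lin-) and 5 primary tumours, each below 1.0 cm in diameter. The labels give neither the hosts' genotype and age nor whether tumours shared a donor, so transplantation and host cannot be told apart, and the p-values cover no more than the scatter among these arrays.

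The luminal markers Krt8, Krt18 and Cdh1 were detected on 16 of 16 arrays, while Krt19 and Foxa1 had only dim probes. The summed intensity of the 9 measured luminal markers was 38178 to 47973 in single TIC tumours, 37308 to 46333 in lin- tumours and 43105 to 49265 in primary tumours. Between 48.7% and 51.2% of probes were detected per array. Mean raw intensity was 961 ± 52.4 in single TIC arrays (SD, n = 9), 961 in lin- arrays (n = 2) and 882 ± 57.1 in primary arrays (SD, n = 5), and the single TIC and primary arrays differed (two-sided exact permutation test, p = 0.0225). Single TIC 4, primary 2 and primary 5 stood apart in clustering on all genes, with median correlations to the other arrays of 0.958, 0.962 and 0.965.

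Secretory and membrane proteins fold in the ER with the help of chaperones such as BiP (Hspa5) and of disulfide isomerases, and misfolded ones are sent back to the cytosol for degradation. When unfolded proteins accumulate, the sensors IRE1 (Ern1), PERK (Eif2ak3) and ATF6 start the unfolded protein response, in which spliced XBP1 and cleaved ATF6 raise chaperone and degradation genes, and PERK slows translation and raises ATF4 and CHOP (Ddit3). Mammary epithelium secretes large amounts of milk protein during lactation and makes much use of this machinery.

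Pdia3, Creld2 and Derl2 rose in single TIC tumours relative to primary tumours, and 0 members were called lower. Pdia3, a disulfide isomerase for glycoproteins, was 2.03-fold higher, Creld2, an ER-resident protein with isomerase activity that is induced by ER stress, was 1.77-fold higher, and Derl2, a membrane protein of ER-associated degradation, was 1.36-fold higher (9 single TIC and 5 primary tumours). The sensors and transcription factors of the response did not pass the test in any comparison. These 3 of 27 called higher stand beside 6.26% of all 9903 genes (620) called, 2.13% (211) higher and 4.13% (409) lower, in the same limma fit at adjusted p under 0.05. Of the 27 members, 20 had a higher mean in single TIC tumours and 7 a lower mean, against 46.5% of all genes with a higher mean, and 9 members had an unadjusted p under 0.05, against 25.3% of all genes. The median log2 difference was 0.18 for the members and -0.02 for all genes tested. The members were chosen with earlier results of these data known, so these shares and medians describe the list and do not test it. Differences below are log2, single TIC minus primary, unless other groups are named.

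The members called were spread over roles. Of 7 measured chaperones and co-chaperones 6 had a higher mean and 1 was called, with a median log2 difference of 0.27. Of 6 measured folding enzymes 4 had a higher mean and 1 was called, with a median of 0.28. Of 4 measured sensors and transcription factors 1 had a higher mean and none (0) was called, with a median of -0.07 and 0 at an unadjusted p under 0.05. The 3 targets of the ATF4 arm all had a higher mean, with 0 called, 0 at an unadjusted p under 0.05 and a median of 0.18. Of 5 measured genes of ER-associated degradation 4 had a higher mean and 1 was called, with a median of 0.44. Both measured translocon genes had a higher mean, with 0 called, 1 at an unadjusted p under 0.05 and a median of 0.19.

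**Figure D1:**
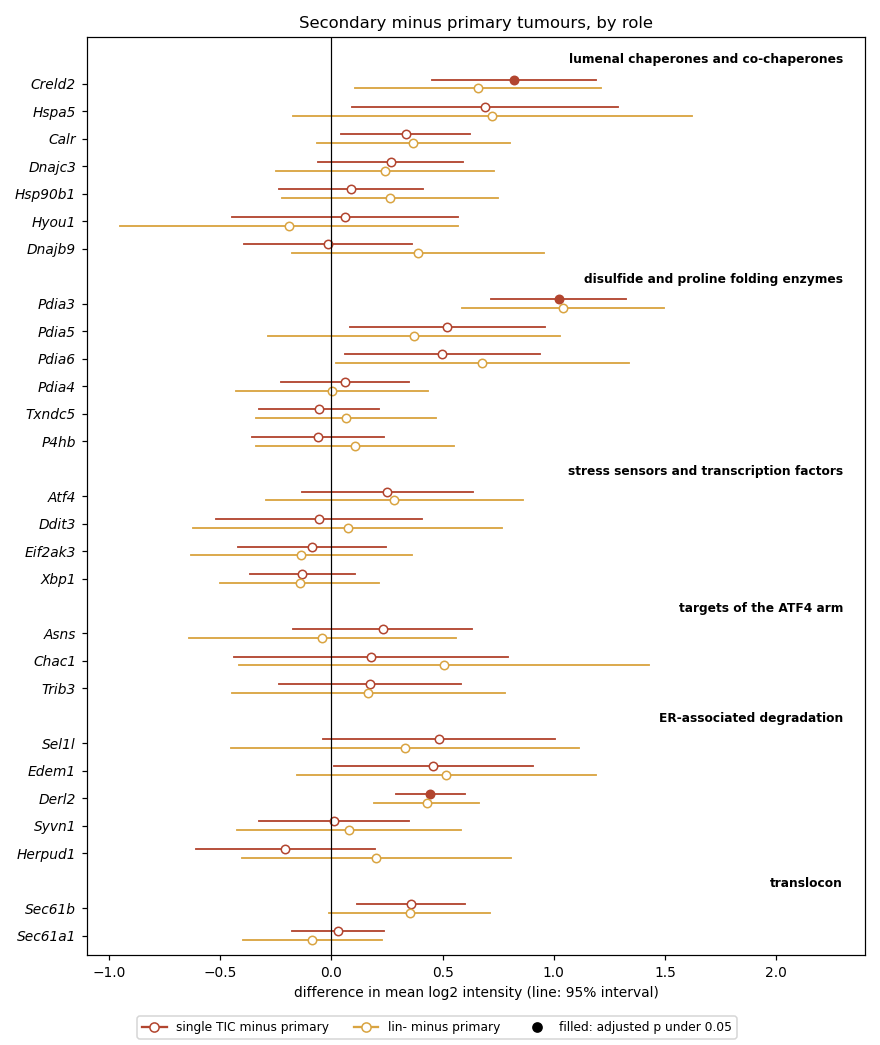
Difference in mean log2 intensity (x axis) of each measured member, with 95% intervals as lines, for single TIC minus primary tumours (red) and lin- minus primary tumours (yellow), grouped by role; filled points had a limma adjusted p under 0.05. The filled points are Creld2 at 0.82, Pdia3 at 1.02 and Derl2 at 0.44, all for single TIC tumours, and the intervals of the sensors and transcription factors all include 0.

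Pdia3 gave the largest difference of the 27 members. Its log2 intensity had a lowest value of 13.18, a median of 13.46 and a highest value of 13.93 in the 9 single TIC tumours. In the lin- tumours it was 13.60 and 13.33. Primary tumours 1 to 5 had 12.59, 11.99, 12.52, 12.80 and 12.23. Every secondary tumour lay above every primary tumour, with primary 2 the lowest of the 16 and single TIC 4 the highest. The log2 difference between single TIC and primary tumours was 1.02 (SE 0.14, 95% interval 0.72 to 1.33, adjusted p = 0.00390), the 6th smallest p of all 9903 genes. With mean raw intensity as a covariate the difference was 1.09 (SE 0.18, adjusted p = 0.0334).

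Creld2 was measured by 2 probes that both rose. On the probe used, log2 intensity ranged from 10.94 to 11.99 with a median of 11.32 in single TIC tumours and was 10.98 and 11.45 in lin- tumours. In primary tumours 1 to 5 it was 10.58, 10.20, 10.35, 11.02 and 10.63. Only primary 4 reached into the single TIC range, and 8 of 9 single TIC tumours lay above it. The log2 difference between single TIC and primary tumours was 0.82 (SE 0.17, adjusted p = 0.0151), and the other probe gave 0.66 (SE 0.17, adjusted p = 0.0311 over all probes). The call was lost with mean raw intensity as a covariate (0.76, adjusted p = 0.119) and without single TIC 4, primary 2 and primary 5 (0.65, adjusted p = 0.0604).

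Derl2 had the narrowest spread of the members among single TIC tumours, with an SD of 0.07 on the log2 scale. Its log2 intensity ran from 9.83 through a median of 9.98 to 10.08 in single TIC tumours and was 9.90 and 10.02 in lin- tumours. Primary tumours 1 to 5 had 9.51, 9.48, 9.49, 9.76 and 9.45. The groups did not overlap, and primary 4 was the one primary tumour close to the secondary ones. The log2 difference between single TIC and primary tumours was 0.44 (SE 0.07, adjusted p = 0.00648), and the second detected probe gave 0.42 (SE 0.11, adjusted p = 0.0318 over all probes). With mean raw intensity as a covariate the difference was 0.42 and the call was lost (adjusted p = 0.0705). Pdia3 and Derl2 were the 2 members whose single TIC values all lay above every primary value, which held for 0.828% of all genes, and 0 members lay below every primary value, which held for 1.66%.

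**Figure D2:**
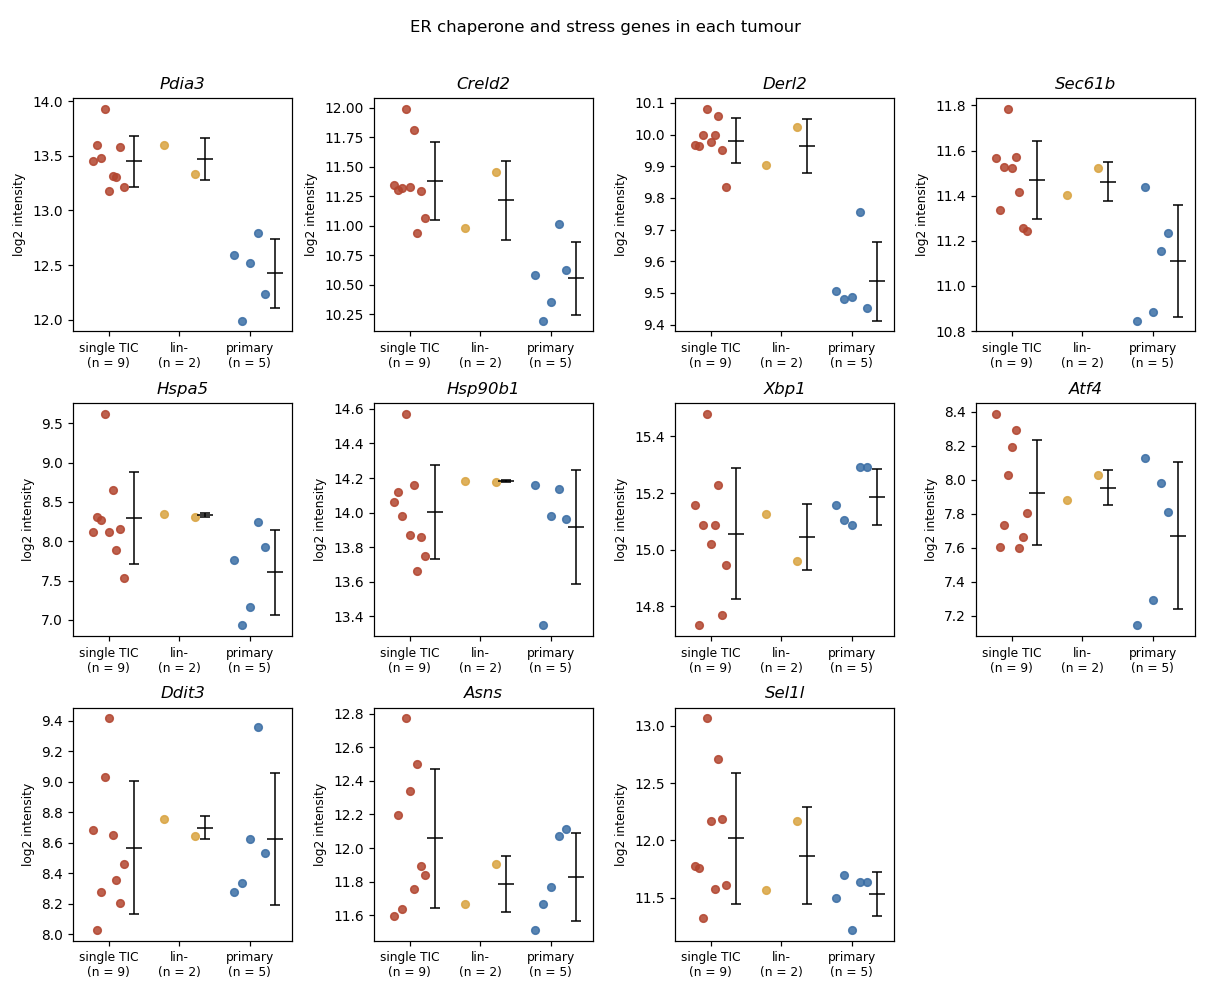
Log2 normalized intensity (y axis, own scale per panel) of the 11 members described tumour by tumour, with 1 point for each tumour and black bars for the mean ± SD of single TIC (n = 9), lin- (n = 2) and primary tumours (n = 5). Pdia3 and Derl2 show no overlap between single TIC and primary tumours, whereas Hsp90b1, Xbp1 and Ddit3 overlap.

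The promoter windows of Pdia3 and Creld2 are shown because both genes rose and an exact match to the ER stress element is in the window of Creld2 alone of the pair. The ER stress element (ERSE) pairs a CCAAT box with a CCACG box, searched here as CCAAT, 9 bases of any kind and then CCACG, on both strands, in windows of 250 bases before to 50 after the RefSeq start (GRCm38.p6). It was found in 39 of 32851 windows (0.119%) and in 7 of the 25 measured members with a window: Hspa5, Hsp90b1, Calr, Dnajc3, Creld2, Pdia6 and Syvn1. Hyou1 and Sec61a1 had no entry among the windows. Capitals mark an exact match to the ERSE, which in Creld2 lies on the opposite strand, and the Pdia3 window held none. The Pdia3 window does hold CCAAT, 9 bases and then CCACA, which differs from the searched letters in the last base only. Such near matches were not counted in any window.
Pdia3 (chr2:121413652-121413951, plus strand): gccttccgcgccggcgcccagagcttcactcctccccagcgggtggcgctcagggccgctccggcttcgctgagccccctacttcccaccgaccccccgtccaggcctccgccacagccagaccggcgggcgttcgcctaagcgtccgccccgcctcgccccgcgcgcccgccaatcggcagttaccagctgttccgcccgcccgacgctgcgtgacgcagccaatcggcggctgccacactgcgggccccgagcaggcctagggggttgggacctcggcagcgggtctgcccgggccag
Creld2 (chr15:88819396-88819695, plus strand): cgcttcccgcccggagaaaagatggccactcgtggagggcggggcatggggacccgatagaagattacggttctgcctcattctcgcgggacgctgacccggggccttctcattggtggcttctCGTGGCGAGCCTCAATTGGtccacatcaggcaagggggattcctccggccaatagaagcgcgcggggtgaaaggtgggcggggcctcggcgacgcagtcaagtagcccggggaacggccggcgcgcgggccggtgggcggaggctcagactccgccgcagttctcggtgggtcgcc
The windows of Derl2 and Sec61b held no match either, which says only that these letters are not in these windows. The 7 members with an ERSE match had single TIC minus primary log2 differences of 0.01 to 0.82 with a median of 0.33, and the 18 without one had -0.21 to 1.02 with a median of 0.18. The corresponding medians for lin- minus primary tumours were 0.37 and 0.24, against the same 5 primary tumours.

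Hspa5 encodes BiP, the major chaperone of the Hsp70 family in the ER lumen, and its mean was higher in single TIC tumours without passing the test. Its log2 intensity had a lowest value of 7.54, a median of 8.15 and a highest value of 9.62 in single TIC tumours and was 8.35 and 8.31 in lin- tumours. In primary tumours 1 to 5 it was 7.77, 6.93, 7.16, 8.24 and 7.93. Single TIC 4 was the highest of the 16 and primary 2 the lowest, and the groups overlapped. The difference between single TIC and primary tumours was 0.69 (SE 0.28, 95% interval 0.09 to 1.29, adjusted p = 0.141), with 8 of 9 single TIC tumours above the primary mean. The probe was dim, and the size of the difference depended on the processing. It ran from 0.41 to 0.84 under the alternative settings other than leaving out 1 tumour, and was called in 0 of them.

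Hsp90b1 encodes GRP94, the Hsp90 family chaperone of the ER, which assists a smaller set of client proteins. Its log2 intensity ran from 13.66 through a median of 13.98 to 14.57 in single TIC tumours and was 14.18 and 14.18 in lin- tumours. Primary tumours 1 to 5 had 14.16, 13.35, 13.98, 14.14 and 13.96. Apart from a high single TIC 4 and a low primary 2, single TIC tumours ran from 13.66 to 14.16 and primary tumours from 13.96 to 14.16. Single TIC 5, 7, 8 and 9 lay below the lowest of these primary tumours. The difference was 0.09 (SE 0.15, 95% interval -0.24 to 0.41, adjusted p = 0.770), and its sign turned under some settings, from -0.16 to 0.15. The Hspa5 and Hsp90b1 windows are shown as classical carriers of the element, with 1 match and 2 matches in capitals.
Hspa5 (chr2:34771840-34772139, plus strand): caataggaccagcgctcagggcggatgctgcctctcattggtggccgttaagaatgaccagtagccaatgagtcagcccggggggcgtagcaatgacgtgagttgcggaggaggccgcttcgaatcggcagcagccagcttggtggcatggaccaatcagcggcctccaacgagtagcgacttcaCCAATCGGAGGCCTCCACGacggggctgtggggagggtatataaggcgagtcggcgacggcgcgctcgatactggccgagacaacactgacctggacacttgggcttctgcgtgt
Hsp90b1 (chr10:86705395-86705694, minus strand): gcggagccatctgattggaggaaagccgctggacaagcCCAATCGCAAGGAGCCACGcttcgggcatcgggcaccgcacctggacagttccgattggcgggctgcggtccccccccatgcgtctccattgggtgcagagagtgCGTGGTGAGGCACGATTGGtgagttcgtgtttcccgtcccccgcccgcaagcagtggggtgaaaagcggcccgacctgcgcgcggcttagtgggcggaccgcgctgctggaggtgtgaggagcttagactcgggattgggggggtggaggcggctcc

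Calr, the lectin chaperone calreticulin, had a log2 difference of 0.33 (SE 0.14, adjusted p = 0.143), with 9 of 9 single TIC tumours above the primary mean and 4 above the highest primary tumour. Dnajc3, a co-chaperone of BiP that also restrains PERK, had 0.27 (adjusted p = 0.294). Hyou1, a large Hsp70-related nucleotide exchange factor for BiP, and Dnajb9, a J-domain co-chaperone of BiP, had 0.06 and -0.01. Their 95% intervals were -0.44 to 0.57 for Hyou1 and -0.39 to 0.36 for Dnajb9.

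Among the other disulfide isomerases, Pdia5 and Pdia6 had higher means that did not pass the test. Pdia5 had 0.52 (SE 0.21, adjusted p = 0.131), with 7 of 9 single TIC tumours above the highest primary tumour. Pdia6 had 0.50 (SE 0.21, adjusted p = 0.146), with 5 of 9 above it. Pdia4 had 0.06, and P4hb, the classical protein disulfide isomerase and a subunit of prolyl 4-hydroxylase, and Txndc5, another thioredoxin-domain isomerase, both had -0.06. The 95% intervals were -0.23 to 0.35 for Pdia4, -0.36 to 0.24 for P4hb and -0.33 to 0.21 for Txndc5, each of which includes 0.

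Xbp1, the transcription factor activated by IRE1-dependent splicing, was bright in all tumours. Its log2 intensity had a lowest value of 14.73, a median of 15.09 and a highest value of 15.48 in single TIC tumours, and it was 15.13 and 14.96 in lin- tumours. In primary tumours 1 to 5 it was 15.16, 15.11, 15.09, 15.29 and 15.29. The primary tumours lay close together inside the wider single TIC range, and 4 of 9 single TIC tumours lay below the lowest of them. The difference was -0.13 (SE 0.11, 95% interval -0.37 to 0.11, adjusted p = 0.497). No value here separates spliced from unspliced Xbp1 mRNA, and Eif2ak3, the kinase PERK, had -0.09 (SE 0.16, adjusted p = 0.772).

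Atf4 encodes the transcription factor whose translation PERK signalling favours. Its log2 intensity ran from 7.60 through a median of 7.80 to 8.39 in single TIC tumours and was 7.88 and 8.03 in lin- tumours. Primary tumours 1 to 5 had 7.14, 8.13, 7.29, 7.98 and 7.81. Primary 1 and primary 3 were the lowest of the 16 and the other tumours overlapped. The difference was 0.25 (SE 0.18, 95% interval -0.13 to 0.64, adjusted p = 0.404).

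Ddit3 encodes CHOP, a transcription factor of prolonged ER stress that promotes cell death. Its log2 intensity ran from 8.03 through a median of 8.46 to 9.42 in single TIC tumours and was 8.75 and 8.64 in lin- tumours. In primary tumours 1 to 5 it was 8.28, 8.34, 8.62, 9.36 and 8.53. The highest values were 9.42 in single TIC 5, 9.36 in primary 4 and 9.03 in single TIC 4, and the ranges overlapped. The difference was -0.06 (SE 0.22, 95% interval -0.52 to 0.41, adjusted p = 0.902).

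Asns, the asparagine synthetase that ATF4 induces when amino acids run short, gave the largest difference among the ATF4 targets. Its log2 intensity had a lowest value of 11.59, a median of 11.89 and a highest value of 12.77 in single TIC tumours and was 11.67 and 11.91 in lin- tumours. Primary tumours 1 to 5 had 11.51, 11.67, 11.77, 12.07 and 12.12. Single TIC 4 and single TIC 7 were the highest, and 4 of 9 single TIC tumours lay above all primary tumours. The difference was 0.23 (SE 0.19, adjusted p = 0.473), and the 3 Asns probes agreed in direction. Trib3, a pseudokinase that dampens ATF4 and CHOP activity, had 0.17 (adjusted p = 0.614), and Chac1, a glutathione-degrading enzyme, had 0.18 (adjusted p = 0.749).

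ATF4 binds C/EBP-ATF composite elements, whose core was searched as TGATGNAA on both strands. It was found in 1304 of 32851 windows (3.97%) and in 5 of 25 measured members: Asns, Trib3, Chac1, Herpud1 and Txndc5. The Asns window is shown as the example of this arm and that of Herpud1 because it held both this core and the ERSE-II element (ATTGG, 1 base of any kind and then CCACG), which was in 12 windows (0.0365%) and, among measured members, in Herpud1. Capitals mark the matches, a single core in Asns and 1 of each in Herpud1.
Asns (chr6:7693160-7693459, minus strand): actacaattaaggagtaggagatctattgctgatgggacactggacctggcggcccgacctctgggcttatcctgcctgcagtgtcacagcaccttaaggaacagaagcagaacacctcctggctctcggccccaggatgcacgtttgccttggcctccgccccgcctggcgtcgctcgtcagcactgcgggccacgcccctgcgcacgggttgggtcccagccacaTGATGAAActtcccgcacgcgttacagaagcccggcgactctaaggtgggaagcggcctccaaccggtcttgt
Herpud1 (chr8:94386179-94386478, plus strand): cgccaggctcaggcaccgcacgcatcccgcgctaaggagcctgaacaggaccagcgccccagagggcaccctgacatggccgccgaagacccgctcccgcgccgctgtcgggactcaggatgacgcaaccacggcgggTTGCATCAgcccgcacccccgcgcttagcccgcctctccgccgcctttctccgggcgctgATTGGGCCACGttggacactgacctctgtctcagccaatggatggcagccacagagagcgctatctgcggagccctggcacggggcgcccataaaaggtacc
The 5 members with the core had log2 differences of -0.21 to 0.23 with a median of 0.17, and the 20 without it had -0.13 to 1.02 with a median of 0.30.

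Herpud1, a membrane adaptor of the degradation complex that is strongly induced by ER stress, had a lower mean in single TIC tumours, at -0.21 (SE 0.19, adjusted p = 0.529), and 6 of 9 lay below the lowest primary tumour. Of these, single TIC 3, 6 and 9 were only just below it, at 13.176, 13.161 and 13.131 against 13.179. Single TIC 4 was the highest of the 16, at 13.98. The second detected probe gave -0.06 (adjusted p = 0.897 over all probes), and lin- minus primary tumours had 0.20. Sel1l, the adaptor of the ubiquitin ligase HRD1, had the largest difference of the degradation genes. Its log2 intensity ran from 11.32 through a median of 11.78 to 13.07 in single TIC tumours and was 11.57 and 12.17 in lin- tumours. In primary tumours 1 to 5 it was 11.50, 11.69, 11.22, 11.63 and 11.63. Single TIC 4 and single TIC 7 were far above the rest, and the primary tumours were close together. The difference was 0.48 (SE 0.25, adjusted p = 0.230), while its other 2 probes gave 0.36 and -0.06 and so disagreed in direction. Syvn1, the ligase HRD1 itself, had 0.01 (adjusted p = 0.976). Edem1, a lectin that hands misfolded glycoproteins to degradation, had 0.46 (SE 0.21, adjusted p = 0.187), with 9 of 9 single TIC tumours above the primary mean. Only 1 of 9 lay above the highest primary tumour, primary 2 at 7.31.

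Sec61b, a subunit of the channel through which new proteins enter the ER, was close to the threshold. Its log2 intensity had a lowest value of 11.24, a median of 11.52 and a highest value of 11.78 in single TIC tumours and was 11.40 and 11.52 in lin- tumours. Primary tumours 1 to 5 had 10.85, 11.44, 10.89, 11.15 and 11.23. The groups overlapped through primary 2, and 5 of 9 single TIC tumours lay above it. The difference was 0.36 (SE 0.11, adjusted p = 0.0698), and the test was passed without primary 2 (0.44, adjusted p = 0.0308). The second detected Sec61b probe gave 0.31 (SE 0.14, adjusted p = 0.182 over all probes). Sec61a1, the pore-forming subunit, had 0.03 (SE 0.10, adjusted p = 0.880).

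The lin- tumours gave no call against primary tumours. In the limma fit 0% of all genes were called, and 0 of 27 members. At an unadjusted p under 0.05 there were 4 members, against 9.85% of all genes, and 22 of 27 members had a higher mean, against 46.8%. The median log2 difference was 0.26 over the members, 0.37 over the chaperones, 0.24 over the folding enzymes, -0.03 over the sensors and transcription factors, 0.17 over the ATF4 targets, 0.33 over the degradation genes and 0.13 over the translocon genes. Pdia3 had 1.04 (SE 0.21, adjusted p = 0.136), Creld2 had 0.66 (SE 0.26, adjusted p = 0.432) and Derl2 had 0.43 (SE 0.11, adjusted p = 0.303). These values share the 5 primary tumours with those of the single TIC tumours.

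Single TIC and lin- tumours were not told apart by any member. None (0%) of all genes was called and 1.69% had an unadjusted p under 0.05, against 0 called and 0 at an unadjusted p under 0.05 among the members. In single TIC tumours 13 of 27 members had the higher mean, against 48.5% of all genes, and 14 the lower, with a median log2 difference of -0.02. The Pdia3 difference was -0.02 (95% interval -0.44 to 0.41), that of Creld2 was 0.16 (95% interval -0.35 to 0.68) and that of Derl2 was 0.02 (95% interval -0.20 to 0.24). With 2 lin- tumours these intervals were wide for most members, and Hspa5 had -0.03 (95% interval -0.87 to 0.81). With both kinds of secondary tumour set together against primary tumours, 4 members were called higher and 0 lower, against 7.65% of all genes called, 2.52% higher and 5.13% lower. A higher mean was seen in 21 of 27 members, against 46.7% of all genes, and 9 members had an unadjusted p under 0.05, against 26.3%. The members called were Pdia3 at 1.03 (adjusted p = 0.00164), Derl2 at 0.44 (adjusted p = 0.00331), Creld2 at 0.79 (adjusted p = 0.0110) and Sec61b at 0.36 (adjusted p = 0.0498). With mean raw intensity as a covariate Pdia3 was still called (adjusted p = 0.0168), whereas Derl2 (adjusted p = 0.0516), Creld2 (adjusted p = 0.106) and Sec61b (adjusted p = 0.163) were not. The Sec61b call was lost on leaving out any 1 of 13 of the 16 tumours, with adjusted p up to 0.135.

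**Figure D3:**
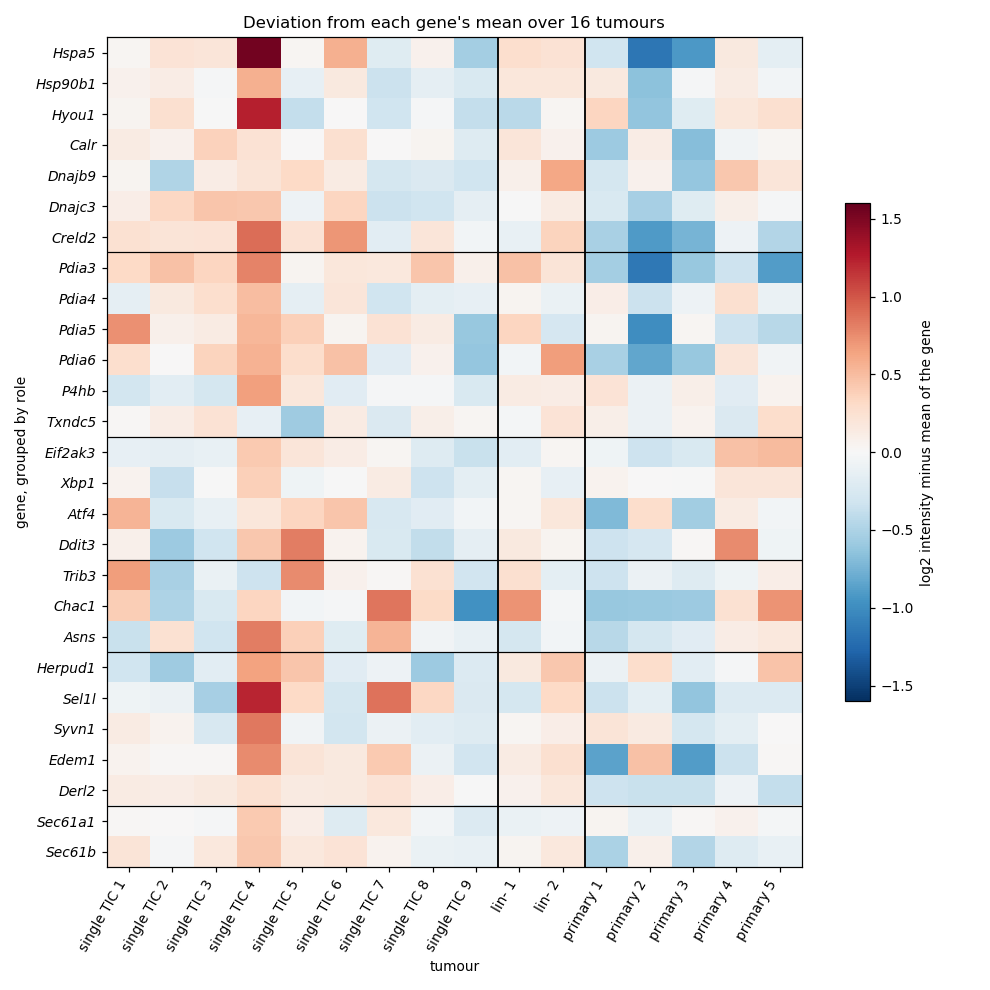
Log2 intensity of each measured member (rows, by role) in each tumour (columns), as the difference from the member's mean over the 16 tumours, in colour. Single TIC 4 was the highest of the 16 in 16 of 27 members, and primary 2 was the lowest in 9 of 27.

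The spread within groups was read from the SD of log2 intensity. Its median was 0.31 over the members in single TIC tumours and 0.31 in primary tumours, against 0.25 and 0.26 over all genes tested. Single TIC 4 was the highest of the 16 tumours in 16 of 27 members, against 11.7% of all genes, and the highest of the 9 single TIC tumours in 18 of 27, against 18.3% of all genes. Its Hspa5 level was 9.62, and the next highest was 8.65 in single TIC 6. The other 11 members, of several roles, were highest in other tumours. Primary 2 was the lowest of the 16 tumours in 9 of 27 members, against 10.6% of all genes. Pdia3 and Derl2 had no overlap between groups, so that their order did not rest on either tumour.

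Among the 9 single TIC tumours the levels of Hspa5 and Hsp90b1 were correlated. Of 7 pairs examined, Hspa5 and Hsp90b1 had Pearson r = 0.933 (exact permutation p = 0.000678, adjusted 0.00475) and Spearman rho = 0.867 (exact permutation p = 0.00451, adjusted 0.0316). Without single TIC 4 and single TIC 9, the tumours farthest from the median of Hspa5, r was 0.824 (n = 7). Hspa5 and Pdia4 had r = 0.831 (exact permutation p = 0.00300, adjusted 0.0105) and rho = 0.717 (exact permutation p = 0.0369, adjusted 0.129), with r = 0.808 without the same tumours. Hspa5 with Xbp1 had r = 0.572 (exact permutation p = 0.114, adjusted 0.247) and rho = 0.100 (p = 0.800, exact permutation), and r = -0.219 without the same tumours, so that the relation rested on them. Hspa5 with Herpud1 had r = 0.539 (exact permutation p = 0.141, adjusted 0.247) and rho = 0.167 (p = 0.678, exact permutation), and r = -0.187 without them. Hspa5 with Ddit3 had r = 0.341 (exact permutation p = 0.360, adjusted 0.504) and rho = 0.00 (p = 1, exact permutation). Asns had r = -0.240 with Trib3 (exact permutation p = 0.528, adjusted 0.572) and r = -0.214 with Atf4 (exact permutation p = 0.572, adjusted 0.572), with rho of -0.283 and -0.433 (exact permutation p = 0.463 and 0.250). The tumours shared an assay and a scaling, and the pairs were named with earlier results known.

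**Figure D4:**
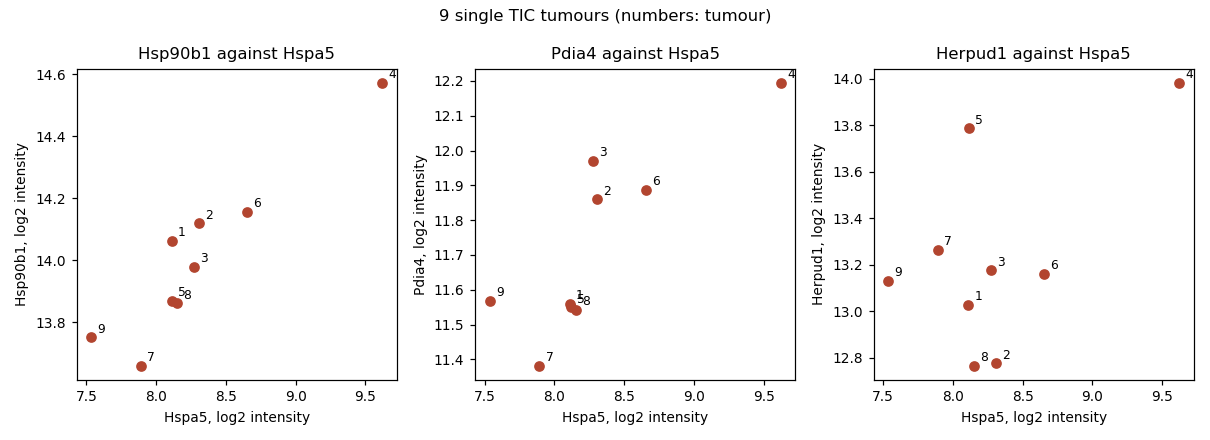
Log2 intensity of Hspa5 (x axis) against that of Hsp90b1, Pdia4 and Herpud1 (y axes, 1 panel each) in the 9 single TIC tumours, 1 numbered point for each tumour. The points of Hsp90b1 and Pdia4 run upwards together with Hspa5 (r = 0.933 and 0.831), those of Herpud1 scatter (r = 0.539), and single TIC 4 lies at the upper right of each panel.

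The median of the wider ER machinery lay near 0. Of 91 other genes of ER folding, quality control and stress, 74 were measured, 38 with a higher and 36 with a lower mean in single TIC tumours, and the median log2 difference was 0.00. Fkbp2, an ER prolyl isomerase, rose, with a log2 difference of 0.89 (SE 0.13, adjusted p = 0.00473). Mbtps1, the site-1 protease that cleaves ATF6, had a log2 difference of -0.41 and so fell (SE 0.11, adjusted p = 0.0465). The other 72 did not pass the test, beside 6.26% of all genes called. Of the 74, 14 had an unadjusted p under 0.05, against 25.3% of all genes. The wider list, like the members, was chosen with earlier results known. Of 19 chaperones outside the ER 16 were measured, 8 with a higher and 8 with a lower mean, 0 called by limma and a median of -0.01. Of these 16, 3 had an unadjusted p under 0.05, against the same 25.3% of all genes.

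Markers of other cell types were summed in each tumour to set beside the members. For the counts below, 6.26% of all genes were called in single TIC against primary tumours. A higher mean was seen in 46.5% of all genes and an unadjusted p under 0.05 in 25.3%. The 6 measured of 16 listed B and plasma cell markers, which include cells rich in ER, summed to intensities of 271 to 1211 in single TIC tumours, 294 to 846 in lin- tumours and 235 to 332 in primary tumours. All 6 had a higher mean in single TIC than in primary tumours. None (0) was called by limma and 0 had an unadjusted p under 0.05. Jchain, Tnfrsf17, Prdm1 and Ms4a1 had only dim probes. Mzb1 and Cd79a were detected on 2 arrays, Irf4 on 3, Cd79b and Pou2af1 on 5 and Sdc1 on 16. A marker detected on so few arrays can pass the filter through the tumours where it is high. The higher means of such markers are therefore no evidence of a difference. Single TIC 2 was highest in the B and plasma cell sum, and single TIC 4 had 373. The 7 measured of 8 fibroblast markers summed to 505 to 5530 in single TIC tumours, 3232 to 3656 in lin- tumours and 341 to 2970 in primary tumours, with single TIC 4 highest. Of these 7, 6 had a higher mean in single TIC than in primary tumours, with 0 called and 4 at an unadjusted p under 0.05. The 4 measured of 9 macrophage markers summed to 4297 to 12821 in single TIC tumours, 5161 to 7519 in lin- tumours and 2023 to 6558 in primary tumours, and all 4 had a higher mean, with 0 called and 2 at an unadjusted p under 0.05. The 5 measured of 6 endothelial markers summed to 779 to 1568 in single TIC tumours, 998 to 1147 in lin- tumours and 161 to 1128 in primary tumours, and 4 of 5 had a higher mean, with 0 called and 3 at an unadjusted p under 0.05. Both measured adipocyte markers and the 3 measured T and NK cell markers also had a higher mean in single TIC tumours. None (0) of them was called and 0 had an unadjusted p under 0.05. The adipocyte sums were 60 to 1576 in single TIC, 146 to 594 in lin- and 67 to 134 in primary tumours. Those of T and NK cells were 169 to 1333, 387 to 389 and 109 to 2362, with primary 2 the highest of all tumours. Primary 2 was the lowest in the fibroblast and endothelial sums. Adipoq and Cd3e were detected on 9 arrays and Lep on 6, so the same limit of the filter applies. It also applies to the fibroblast and endothelial counts, as Col1a2 was detected on 8 arrays, Cdh5 on 9 and Lum, Fap and Tie1 on 11.

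Milk genes, which mark secretory alveolar cells, mostly had lower means in single TIC than in primary tumours. The 7 measured of 8 summed to 71404 to 154760 in single TIC tumours, 79232 to 104330 in lin- tumours and 86090 to 113850 in primary tumours, and 6 of 7 had a lower mean. Csn3, counted among these 6, was flat, with a log2 difference of -0.01. Its mean was 15.81 (SD 0.03) in single TIC and 15.82 (SD 0.04) in primary tumours. This high, nearly constant level is a large part of each sum, which limits what the sums show of the other milk genes. Lalba, the milk protein alpha-lactalbumin, fell, with a log2 difference of -0.71 (SE 0.17, adjusted p = 0.0217), and Csn1s2a, a casein, had -1.78 (SE 0.53, adjusted p = 0.0568). Of the 9 measured luminal markers 7 had a lower mean, and 1, the tight junction gene Cldn7, rose, with 0.54 (SE 0.12, adjusted p = 0.0179). The part of these cell types in the members' differences was not tested, and in bulk RNA a change in the number of cells of a type and in the RNA per cell cannot be told apart.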

How the data were processed

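Per the file headers, each tumour has 2 columns in the non-normalized deposited table, a linear-scale intensity and a detection p-value, over 25697 probes. The authors' processed table holds intensities whose quantiles agree between arrays, as judged from its values, and was used as an alternative. BeadStudio is the tool named in the submitters' processing notes; what it was set to do is not stated. Probe symbols came from the platform annotation.

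Intensities were background-corrected with limma 3.58.1 (nec, normexp on the detection p-values, offset 16) in R 4.3.3, quantile-normalized and log2-transformed. Of the probes, 14520 had a detection p-value under 0.05 on at least 2 arrays and 13681 of these had a gene symbol, giving 9903 genes, each represented by its brightest probe. Group means of all 16 tumours were fitted with lmFit and eBayes, and all secondary against primary tumours as a 2-group fit. Tests were two-sided, p-values were Benjamini-Hochberg adjusted over 9903 genes, and calls are at adjusted p under 0.05. The exact permutation test of mean raw intensity was run in R. The correlations used scipy 1.17.1, with permutation over all orders of the tumours. The number of arrays limits the precision. The method was tested on simulated data with independent normal scatter and no difference in array brightness between groups. That test therefore says nothing about the effect of array brightness.

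The members, their roles and the wider lists were chosen with earlier results of these data known. Values by tumour are given for members called in any comparison, for Hspa5, Hsp90b1, Xbp1, Atf4 and Ddit3, and for the member of each role with the largest difference between single TIC and primary tumours; genes of the wider list are named where called. Promoter windows are from RefSeq (GRCm38.p6) and were matched by symbol for 31 of 37 members. Alternatives changed the background correction, scaling, detection filter, choice of probe, array weights, covariate and tumours in the fit; the fit without the 3 tumours that stood apart was chosen after seeing the data.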

Additional observations from a re-analysis of the deposited data

Results flagged for a closer look

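In 54 combinations of a member and a group (single TIC or primary), 5 had a tumour at the end of the range that was far from the others of its group by Dixon's test, where chance gives about 1 in 20. Single TIC 4 was the high tumour in 3 of them. Hyou1 was 8.92 on the log2 scale in single TIC 4 and 7.30 to 7.94 in the other single TIC tumours, P4hb was 14.87 against 13.92 to 14.38, and Syvn1 was 13.26 against 12.13 to 12.56. Among primary tumours, Derl2 was 9.76 in primary 4 and 9.45 to 9.51 in the others, and Hsp90b1 was 13.35 in primary 2 and 13.96 to 14.16 in the others.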

How the results depend on the processing

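Pdia3 was called in single TIC against primary tumours under all 28 settings, Derl2 under 27 and Creld2 under 26. With mean raw intensity as a covariate, 18 genes and 1 member (Pdia3) were called in single TIC against primary tumours, and 32 genes and 1 member in all secondary against primary tumours; the cause was not tested. Leaving out 1 tumour gave 262 to 784 genes and 3 to 5 members in single TIC against primary tumours. The low counts were 294 without primary 1, 262 without primary 3 and 278 without primary 5, and the 5 members without primary 2 added Edem1 and Sec61b. For all secondary tumours the ranges were 373 to 947 genes (432 without primary 1, 387 without primary 3, 373 without primary 5) and 3 to 6 members. Without the 3 tumours that stood apart, 4 members (Pdia3, Derl2, Edem1 and Sec61b) were called in single TIC against primary tumours. In lin- against primary tumours, 1 gene was called with no background correction, offset 50, the authors' processed table, no filter on detection, detection on all 16 arrays or only the groups compared, 10 with array weights, 3 without the 3 tumours that stood apart and 0 to 7 on leaving out 1 tumour; members stayed at 0 throughout. In single TIC against lin- tumours, 1 gene was called with array weights and 0 to 1 on leaving out 1 tumour. A slide block was not run because the file headers give no slide. No paired analysis was possible because the labels give no shared replicate numbers. Levels of genes with dim probes are limited by signal over background.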

Other observations

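Derl3, a paralogue of Derl2 in ER-associated degradation, had the largest log2 difference among the 74 measured genes of the wider ER list and is named here after its values were seen. Its log2 intensity averaged 8.55 ± 0.84 in single TIC tumours (SD, n = 9, range 7.29 to 10.20), was 8.47 and 8.54 in lin- tumours, and averaged 7.30 ± 0.73 in primary tumours (SD, n = 5, range 6.48 to 8.12). The difference between single TIC and primary tumours was 1.24 (SE 0.39) and did not pass the limma test (adjusted p = 0.0682).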
